A study of Rattus norvegicus with 10 samples.

Results

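Transcripts of 6 neuronal calcium-binding proteins were examined in the rat supraoptic nucleus after a knock-down of Opn3, the gene of the light-sensitive receptor opsin 3. The 6 genes were Calb1, Calb2, Pvalb, Scgn, Necab1 and Necab2, taken by name from a table of 32623 genes, and each name stood beside 1 identifier. RNA had been sequenced from 10 nuclei of male Sprague Dawley rats. In shControl (n = 5) the nucleus had received an adeno-associated virus with a non-targeting hairpin, and in shOpn3 (n = 5) one with a hairpin against Opn3. Each rat carried both viruses, 1 per side, and tissue was taken after 2 weeks, so that both groups share the injection, the virus and the opposite injected side. No uninjected nucleus is among these samples. The age of the rats, the promoter behind the hairpins and the infected cell types are not given in the sources used here. Each sample was a 1 mm punch from 100 µm sections, and thus holds neurons, glia and vessels together. A change in a transcript can therefore come from fewer cells of a type or from less RNA per cell, and these cannot be told apart.

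All 6 proteins bind calcium through EF-hands, helix-loop-helix folds that hold the ion in their loop. Calbindin (Calb1), calretinin (Calb2), parvalbumin (Pvalb) and secretagogin (Scgn) take up calcium that enters during firing, and several of them also change shape and bind partners, as sensors do. The NECAB proteins carry an EF-hand stretch at one end and a domain related to monooxygenases at the other, and they bind receptors and vesicle proteins. In brain these genes are used to tell classes of neurons apart. The magnocellular neurons of this nucleus fire in bursts to release vasopressin and oxytocin, and calbindin and calretinin have been described in them.

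Values are normalized counts, that is reads divided by 1 size factor per sample, and replicate numbers 1 to 5 follow the labels. Fold changes are differences of log2(normalized count + 1), shOpn3 minus shControl, with their standard error (SE). They were tested with limma, a linear model across all 15597 genes with a mean of at least 10, and called at an adjusted p under 0.05. By this rule 18.8% of all genes were called, 10.4% higher and 8.48% lower in shOpn3. All 6 members passed the filter on low values. Library totals ran from 33158341 to 39958578 reads. One library stood apart by its target: Opn3 was 261 in shControl replicate 5, below the 289.7 of shOpn3 replicate 1, whereas the other shControl samples lay between 694 and 1007 and the other shOpn3 samples between 145 and 193 (log2 fold change of Opn3 -1.82; limma adjusted p = 0.00226). Marker transcripts moved with the groups as well. Of 12 magnocellular markers 10 were lower, with summed normalized counts of 98217 to 221631 in shControl and 48470.0 to 86654 in shOpn3. All 8 oligodendrocyte markers were lower (731561 to 1244843 against 248955 to 470326), and 9 of 10 microglial markers were higher (10237 to 14542 against 19386 to 40154). Of 5 T cell markers 4 were higher (56.1 to 132 against 129.6 to 375), as were 4 of 8 astrocyte markers (232227 to 302587 against 290641 to 421098). None of the tested markers in these 5 lists was at 0 in all samples. Their part in the results below was not tested.

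Of the 6 members, Scgn and Calb1 were lower after the knock-down, Necab2 was higher, and Calb2, Necab1 and Pvalb were not called. Scgn stood at 52.8% of its control mean, Calb1 at 61.5% and Necab2 at 162%. The 3 calls among 6 members stand beside 18.8% of all genes. The members were chosen with earlier results of these data known, so this share is a description. The median log2 fold change of the members was -0.12, against -0.02 for all genes tested. With the replicate number as a block, which called 30.3% of all genes, the same 3 members were called. The count fell from 3 to 1, namely Scgn, without shControl replicate 2, 3 or 4 or shOpn3 replicate 3 or 5.

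**Figure D1:**
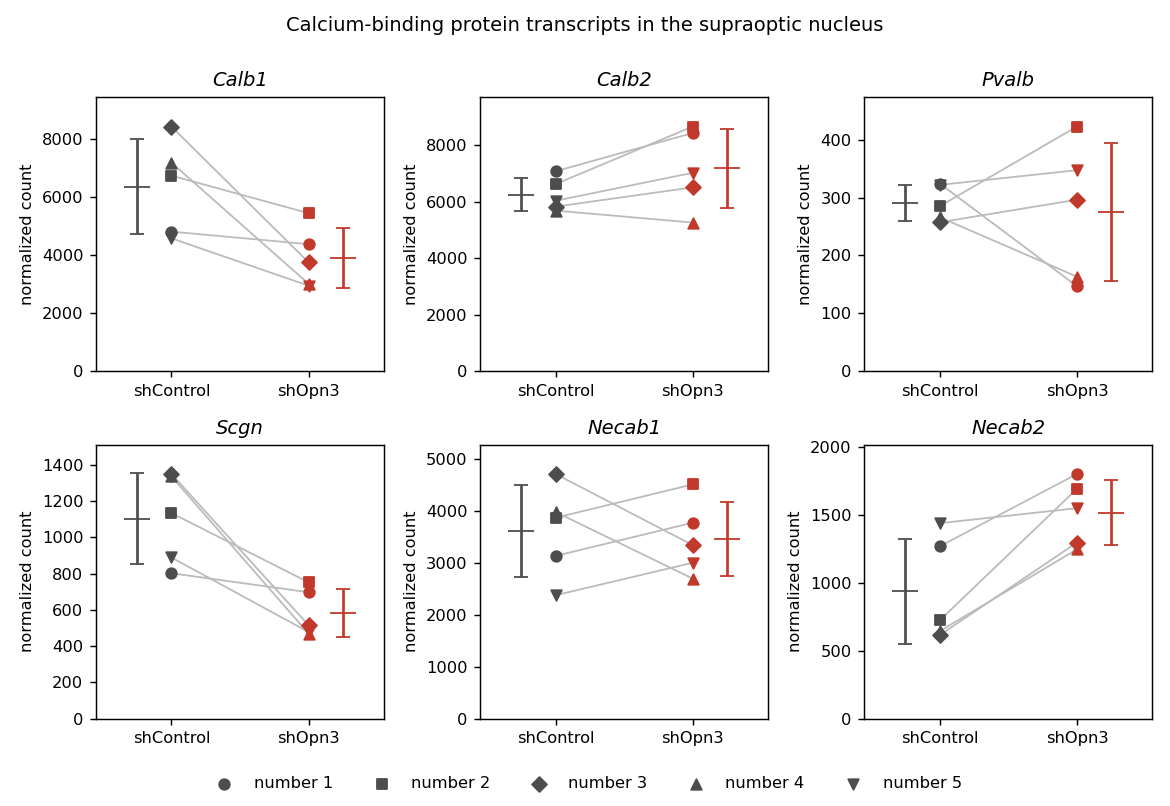
Normalized counts (vertical axes, from 0) of each of the 6 genes in shControl (grey) and shOpn3 (red). Marker shapes are the replicate numbers, lines join same-numbered samples, and the offset bars are mean ± SD of 5 samples. All 5 lines fall for Calb1 and Scgn and all 5 rise for Necab2, while lines cross for Pvalb and Necab1.

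Secretagogin, a hexa-EF-hand sensor that takes part in secretion from endocrine and neuroendocrine cells, gave the clearest difference. For Scgn (ENSRNOG00000016628), shControl samples 1 to 5 held 802, 1135, 1350.1, 1337 and 889 normalized counts. The shOpn3 samples 1 to 5 held 697, 752, 515, 468 and 478. Every shOpn3 sample lay below every shControl sample, which held for 15.3% of all genes tested in one direction or the other. The means were 1103 ± 251 and 582 ± 133 (SD, n = 5 each). Its log2 fold change was -0.92 ± 0.18 (SE), with an adjusted p of 0.00427 in limma and a p of 0.00794, the smallest that 5 against 5 allow, in the exact two-sided permutation test. Against the same-numbered control, shOpn3 samples kept 86.9%, 66.3%, 38.1%, 35.0% and 53.7% of Scgn for numbers 1 to 5. The fall was thus smallest in number 1 and largest in numbers 3 and 4. The call held in all 21 alternative fits, with a highest adjusted p of 0.0147 over them. In the authors' deposited table its log2 fold change was also -0.92 (DESeq2 adjusted p = 2.4e-05).

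The stretch before the RefSeq start of Scgn is shown, as that of the member with the clearest difference. It spans chr17:41534308-41534557 on the plus strand of GRCr8 and is printed 5′ to 3′, with a match to the AP-1 element in capitals.
Scgn upstream: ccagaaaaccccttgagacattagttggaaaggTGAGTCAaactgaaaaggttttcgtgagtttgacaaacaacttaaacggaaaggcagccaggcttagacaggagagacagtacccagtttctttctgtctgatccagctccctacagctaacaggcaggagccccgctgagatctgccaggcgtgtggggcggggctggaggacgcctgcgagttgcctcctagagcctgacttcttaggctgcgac
The 250 bases were searched on both strands for 4 motifs: TGANTCA (AP-1, the element bound by Fos and Jun proteins), TGACGTCA (the cyclic AMP response element), TATAAA (the TATA box) and GGGCGG (the GC box). They held 1 match to TGANTCA, which starts 217 bases before the start site, and 1 to GGGCGG, and none to the others. Of 33469 RefSeq windows of this length, 6.34% hold TGANTCA, 30.5% GGGCGG, 12.9% TATAAA and 1.59% TGACGTCA. G and C make up 53.6% of the Scgn window, against a median of 51.2% over all windows. For Necab2 the window of the same length was 85.6% G and C, richer than 99.9% of all windows, with 3 matches to GGGCGG and none to the other 3 motifs. These matches are descriptions of the letters and were not tested against the data.

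Calbindin, the calcium buffer that also marks many forebrain neurons, was lower as well. For Calb1 (ENSRNOG00000007456), shControl samples 1 to 5 held 4813, 6746, 8440.4, 7194 and 4582 normalized counts, and shOpn3 samples 1 to 5 held 4381, 5449, 3749, 3011 and 2947. The groups overlapped, because shControl replicates 1 and 5 lay below shOpn3 replicate 2. The means were 6355 ± 1638 and 3908 ± 1043 (SD, n = 5 each). The log2 fold change of Calb1 was -0.70 ± 0.20 (SE), with an adjusted p of 0.0286 in limma and a p of 0.0317 in the exact two-sided permutation test. It was lower in 5 of 5 same-numbered pairs, as were 20.7% of all genes. In these pairs 91.0%, 80.8%, 44.4%, 41.8% and 64.3% of the control was left for numbers 1 to 5, the same order of pairs as for Scgn. The call was lost, with the same direction, when any 1 of 6 libraries was left out: shControl replicates 2, 3 or 4 (log2 fold change -0.67, -0.59 and -0.65; limma adjusted p = 0.0657, 0.0628 and 0.0685) and shOpn3 replicates 3, 4 or 5 (-0.70, -0.62 and -0.61; 0.0635, 0.0677 and 0.0722). Without shControl replicate 5 it was -0.81 (limma adjusted p = 0.0156).

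Calretinin, the closest relative of calbindin among the members, was not called. For Calb2 (ENSRNOG00000016977), shControl samples 1 to 5 held 7069, 6615, 5819, 5679 and 6027 normalized counts, and shOpn3 samples 1 to 5 held 8425, 8654, 6501, 5256 and 7017. It was higher in shOpn3 in 4 of 5 pairs, number 4 being the exception, and the groups overlapped. The means were 6242 ± 584 and 7171 ± 1406 (SD, n = 5 each). The log2 fold change was 0.18 (95% interval -0.10 to 0.46; limma adjusted p = 0.364), so that a fall of 0.10 and a rise of 0.46 are both within the error. The ratio of Calb1 to Calb2 reads, of which only the change between samples has a meaning here, was 0.681, 1.02, 1.45, 1.27 and 0.760 in shControl and 0.520, 0.630, 0.577, 0.573 and 0.420 in shOpn3, with no overlap and lower in 5 of 5 pairs. The exact two-sided permutation test of this ratio gave p = 0.00794, and exact sign flips over the pairs gave 0.0625. The ratio was formed after the values had been seen, so these p-values are no independent support.

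Necab2, whose product binds the glutamate receptor mGluR5 and the adenosine receptor encoded by Adora2a, was the member that rose. For Necab2 (ENSRNOG00000015084), shControl samples 1 to 5 held 1267, 722, 614, 643 and 1438 normalized counts, and shOpn3 samples 1 to 5 held 1799.8, 1691, 1295, 1246 and 1548. Among the controls, replicates 2, 3 and 4 were low and replicates 1 and 5 high, and the high ones overlapped with shOpn3. The means were 937 ± 386 and 1516 ± 242 (SD, n = 5 each). The log2 fold change of Necab2 was 0.77 ± 0.23 (SE), with an adjusted p of 0.0359 in limma and a p of 0.0397 in the exact two-sided permutation test. It was higher in 5 of 5 pairs, as were 18.7% of all genes, at 142%, 234%, 211%, 194% and 108% of the same-numbered control. In number 5 the pair was nearly level. The call was lost under edgeR (log2 fold change 0.69, adjusted p = 0.0567) and without any 1 of 7 libraries: shControl replicates 2, 3 or 4 (0.70, 0.64 and 0.66; limma adjusted p = 0.0866, 0.0777 and 0.0870) and shOpn3 replicates 1, 2, 3 or 5 (0.71, 0.73, 0.83 and 0.76; 0.0717, 0.0737, 0.0546 and 0.0719). It was 0.95 without shControl replicate 5 (limma adjusted p = 0.00786).

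Necab1, whose product binds synaptotagmin 1, was not called. For Necab1 (ENSRNOG00000007256), shControl samples 1 to 5 held 3133, 3868, 4711, 3979 and 2376 normalized counts, and shOpn3 samples 1 to 5 held 3773, 4511, 3341, 2695 and 3002. It was higher in shOpn3 for numbers 1, 2 and 5 and lower for numbers 3 and 4, and the ranges of the groups largely coincided (3613 ± 889.5 and 3464 ± 709, SD, n = 5 each). The log2 fold change was -0.05 (95% interval -0.44 to 0.35; limma adjusted p = 0.893). The ratio of Necab1 to Necab2 reads ran from 1.65 to 7.67 in shControl and from 1.94 to 2.67 in shOpn3. The ranges of this ratio overlapped, with 4 of 5 pairs lower after the knock-down. It too was formed after the values had been seen (p = 0.135 in the exact two-sided permutation test, and 0.125 by exact sign flips over the pairs).

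Parvalbumin, the fast calcium buffer of fast-spiking inhibitory neurons, was the least even member. For Pvalb (ENSRNOG00000006471), shControl samples 1 to 5 held 324, 285, 257, 266 and 322 normalized counts, and shOpn3 samples 1 to 5 held 147, 423, 296, 163 and 347. The highest control was 1.26 times the lowest, while in shOpn3 the highest sample was 2.88 times the lowest, with replicates 1 and 4 low and replicate 2 high. The means were 291 ± 31.1 and 275 ± 119 (SD, n = 5 each). The log2 fold change was -0.19 (95% interval -0.76 to 0.38; limma adjusted p = 0.663). The wide interval leaves room for a change of either sign.

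**Figure D2:**
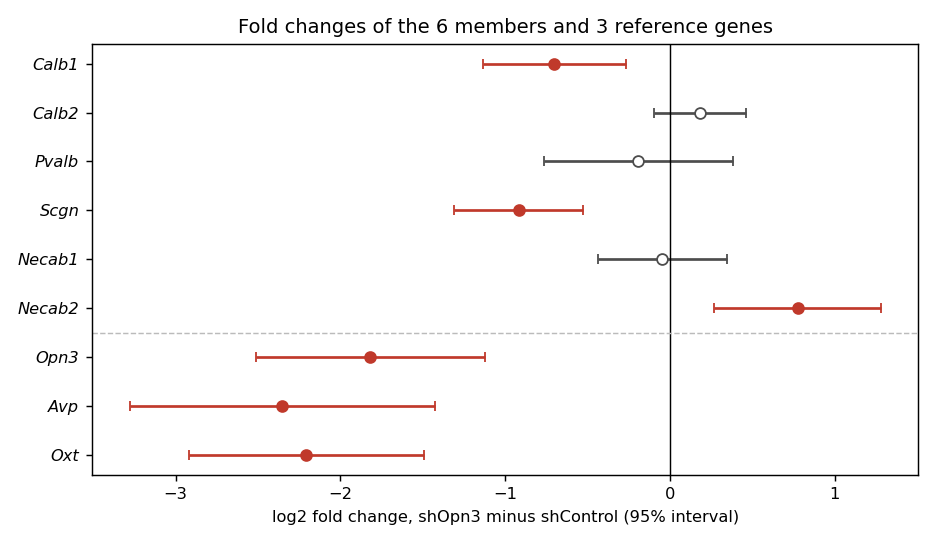
Log2 fold change, shOpn3 minus shControl (horizontal axis), with the 95% interval of the limma fit, for the 6 members and, under the dashed line, 3 reference genes. Filled red points have a limma adjusted p under 0.05 and open grey points do not. Scgn and Calb1 lie left of 0, Necab2 lies right of it, and the 3 reference genes lie further left, between -2.35 and -1.82.

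The members were then set against the transcripts that define the neurons of the nucleus, to ask whether they moved by the same amount. Avp (vasopressin) and Oxt (oxytocin) both fell, with log2 fold changes (± SE) of -2.35 ± 0.43 for Avp and -2.21 ± 0.33 for Oxt (limma adjusted p = 0.00269 and 0.000915). Relative to the mean of these peptides, each member was higher in shOpn3 in 5 of 5 pairs. Because both peptides fell so far, a gene without any change would also be higher by this measure. The shared direction is therefore not particular to the members. The relative difference was smallest for Scgn (1.36 on the log2 scale) and Calb1 (1.58) and greatest for Necab2 (3.05), with Pvalb, Necab1 and Calb2 at 2.09, 2.23 and 2.46. All 6 had an adjusted p of 0.0159 (exact two-sided permutation tests over 5 against 5 samples, adjusted over the 6 members); sign flips over the 5 pairs gave 0.0625 for each, the smallest they can give. Thus Scgn and Calb1 fell by less than the peptide transcripts.

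Relative to the mean of 12 general neuronal markers, among them Snap25, Syn1 and Rbfox3, the picture was that of the plain fold changes. These markers had a median log2 fold change of -0.01, with 2 higher and 3 lower (41.7% called, against 18.8% of all genes). The replicate block called 2 of them higher and 4 lower, so a median near 0 does not mean that each marker was unchanged. Scgn differed by -0.92 and Calb1 by -0.70 relative to them (exact two-sided permutation tests, adjusted p = 0.0476 each over 6 members). Both were lower in 5 of 5 pairs. Exact sign flips over the pairs gave an adjusted p of 0.188 each. Sign flips cannot go below 0.0625 before adjustment, so they could not have given a call. Necab2 differed by 0.77 and Calb2 by 0.18 (adjusted p = 0.0952 each, exact test, higher in 4 of 5 pairs each), and Necab1 and Pvalb by -0.05 and -0.19 (adjusted p = 0.754 and 0.752, exact test). Some of these calls changed when 1 library was left out, although the differences listed here kept their sign. Leaving 1 out also leaves fewer splits, so the exact p-values become coarser. The call for Scgn was lost without shOpn3 replicate 1, 3, 4 or 5 (exact test, adjusted p = 0.0952 each; -0.94, -0.89, -0.94 and -0.86), as was that for Calb1 (-0.70, -0.71, -0.71 and -0.61). Calb1 also lost it without shControl replicate 2, 3 or 4 (-0.67, -0.61 and -0.65; adjusted p = 0.0714 each, exact test). Without shControl replicate 5, Calb2 and Necab2 were called, at 0.23 and 1.02 (adjusted p = 0.0159 each, exact test).

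**Figure D3:**
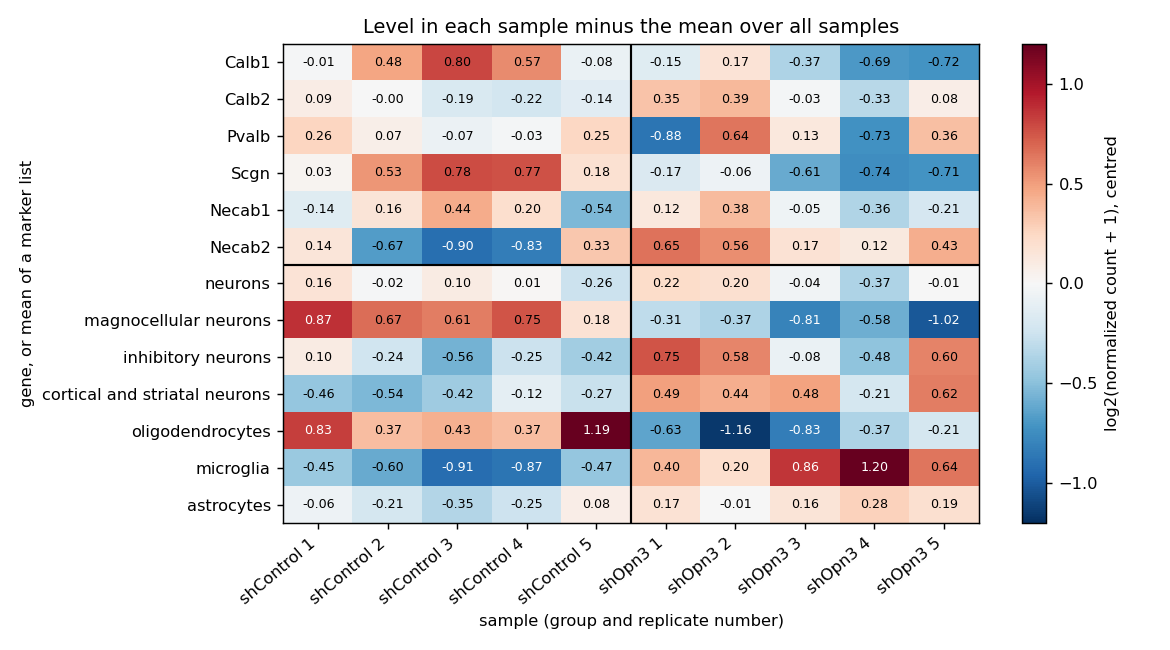
Level of each member (upper 6 rows) and mean level of 7 marker lists (lower rows) in each of the 10 samples (columns), as log2(normalized count + 1) minus its mean over the 10 samples; red is above and blue below that mean. Calb1 and Scgn are highest in shControl replicates 2, 3 and 4, where Necab2 is lowest.

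Across samples Calb1 and Scgn had a common pattern, and Necab2 was opposed to it between the groups and among the controls. Calb1 and Scgn were highest in shControl replicates 2, 3 and 4, and lowest in shOpn3 replicates 3, 4 and 5, with shControl replicates 1 and 5 and shOpn3 replicates 1 and 2 in between. The lowest samples of Necab2 were shControl replicates 2, 3 and 4. Within shOpn3 it was not opposed to them: Necab2, Calb1 and Scgn were all higher in replicates 1 and 2 than in 3 and 4. Over the 10 samples the centred log2 profiles of Calb1 and Scgn differed by 0.15 (root mean square), and Calb1 was the 5th nearest of 13845 genes to Scgn, where the median gene differed by 0.58. Necab2 differed from Scgn by 1.03 and from Calb1 by 0.97. Oligodendrocyte markers were highest in shControl replicates 5 and 1, with mean log2 levels 1.19 and 0.83 above the overall mean, against 0.37 to 0.43 in the other controls. Markers of ependyma and choroid plexus stood out in the same 2 libraries, with summed counts of 2595 in replicate 5 and 868 in replicate 1, against 253 to 397 in the other controls and 145 to 301 in shOpn3. Among the controls, microglial and astrocyte markers were also highest in these 2 libraries, which is toward their level in shOpn3. Mean log2 levels of microglial markers were -0.45 and -0.47 in replicates 1 and 5, against -0.91 to -0.60 in the other controls. Those of astrocyte markers were -0.06 and 0.08, against -0.35 to -0.21. The part of any of these lists in the low Calb1 and Scgn and the high Necab2 of these samples was not tested. Among the controls, replicates 1 and 5 lay nearest to shOpn3 for Scgn, Calb1 and Necab2. Leaving these controls out by itself enlarges the differences of these genes, so the larger values below are no separate support. An exclusion of both samples of numbers 1 and 5 was chosen after the values had been seen. Without them the log2 fold changes were -1.16 for Scgn, -0.91 for Calb1 and 1.08 for Necab2 (limma adjusted p = 0.00376, 0.0146 and 0.00188), and Calb2, Necab1 and Pvalb stayed without a call (0.15, -0.28 and 0.02; limma adjusted p = 0.567, 0.286 and 0.966).

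The genes nearest to each member by this distance were named as a description. Nearest to both Calb1 and Scgn was Minar2 (0.11 each), followed for Calb1 by Nwd2 (0.12) and Syt4 (0.13), a synaptotagmin of secretory vesicles. For Scgn, Slit2 (0.13), a guidance cue for axons, and Ptprr (0.13), a tyrosine phosphatase, came next. Calb2 had Chd3, Btbd3 and Thy1 nearest (0.05, 0.06 and 0.08), all 3 without a call. Necab1 had Cdh18, Zfp551 and Micu3 (0.07, 0.07 and 0.08), the last of which is an EF-hand regulator of calcium entry into mitochondria. Necab2 had Ngef, Agap2 and Wfs1 (0.12, 0.13 and 0.14), and Agap2 rose by 0.93 (SE 0.21; limma adjusted p = 0.00789). For Pvalb even the nearest gene, Asb16, was 0.22 away, so its pattern had no close match. On the chromosome, Calb1 and Necab1 stood near each other, with 1 protein-coding gene between them in the RefSeq table of GRCr8. The profiles of these 2 differed by 0.34, where the median gene differed from Calb1 by 0.54. Necab1 ranked 704th of 13845 genes for Calb1, and Calb1 ranked 5522nd for Necab1.

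Parvalbumin and the calbindins also mark neurons of the regions around the nucleus, so markers of such neurons were read beside them. Of 6 inhibitory markers tested, among them Gad1, Gad2 and Sst, 0 were called by limma, where 3 had an unadjusted p under 0.05. The counts called were 1 by edgeR, 2 by DESeq2 and 2, both higher, in the fit blocked on replicate number. The list had a median log2 fold change of 0.54 and summed counts of 17736 to 28757 in shControl and 19652 to 43445 in shOpn3. Npy was listed at 0 in all samples. The reason was not tested, and this is not read as absence of Npy from the tissue. Of 8 cortical and striatal markers 3 were higher and 1 lower (50.0% called, against 18.8% of all genes). Their median log2 fold change was 0.46, with summed counts of 2330.2 to 2969.7 in shControl and 2892 to 4584 in shOpn3. None of them was at 0 in all samples. The part of either list in the values of the members was not tested.

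The wider set of EF-hand proteins was described by a list of 21 genes, of which 19 names were in the table and 18 entries passed the filter, Rcvrn and Kcnip2 being too low. Calm2, a calmodulin gene, stood beside 2 identifiers, and its values are uncertain. Of the 18 entries 4 were higher and 1 was lower (27.8% called, against 18.8% of all genes), with a median log2 fold change of -0.01. As the list was chosen with earlier results of these data known, its share is a description. The replicate block called 4 higher and 2 lower; the added gene was Kcnip1 (-0.47, lower in 5 of 5 pairs; limma adjusted p = 0.0859, and 0.0214 with the block). Hpcal4, a neuronal sensor of the hippocalcin family, averaged 7523 ± 1683 in the controls and 15004 ± 2682 after the knock-down (normalized counts, SD, n = 5 each), with no overlap of the groups. This is a rise of 1.00 ± 0.16 in log2 (± SE; limma adjusted p = 0.00109). Caln1, a calneuron, rose by 0.74 (SE 0.14, limma adjusted p = 0.00395), also with no overlap. Kcnip3 and Vsnl1 rose by 0.51 and 0.44 (SE 0.14 and 0.13; limma adjusted p = 0.0204 and 0.0354). Kcnip4 fell by 0.61 (SE 0.19; limma adjusted p = 0.0392). Like Kcnip3, it encodes a partner of voltage-gated potassium channels. The count of calls in this list dropped from 5 to 2 without shControl replicate 2 or 4 or shOpn3 replicate 5, and to 3 without shOpn3 replicate 3. Kcnip3 lost its call without shControl replicate 2 or 4 or shOpn3 replicate 5 (highest limma adjusted p = 0.0521). Kcnip4 lost it without the same 6 libraries as Calb1 (highest 0.0893). Vsnl1 lost it without shControl replicate 1, 2, 4 or 5 or shOpn3 replicate 1, 2, 3 or 5 (highest 0.0788) and without both samples of numbers 1 and 5 (0.159).

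**Figure D4:**
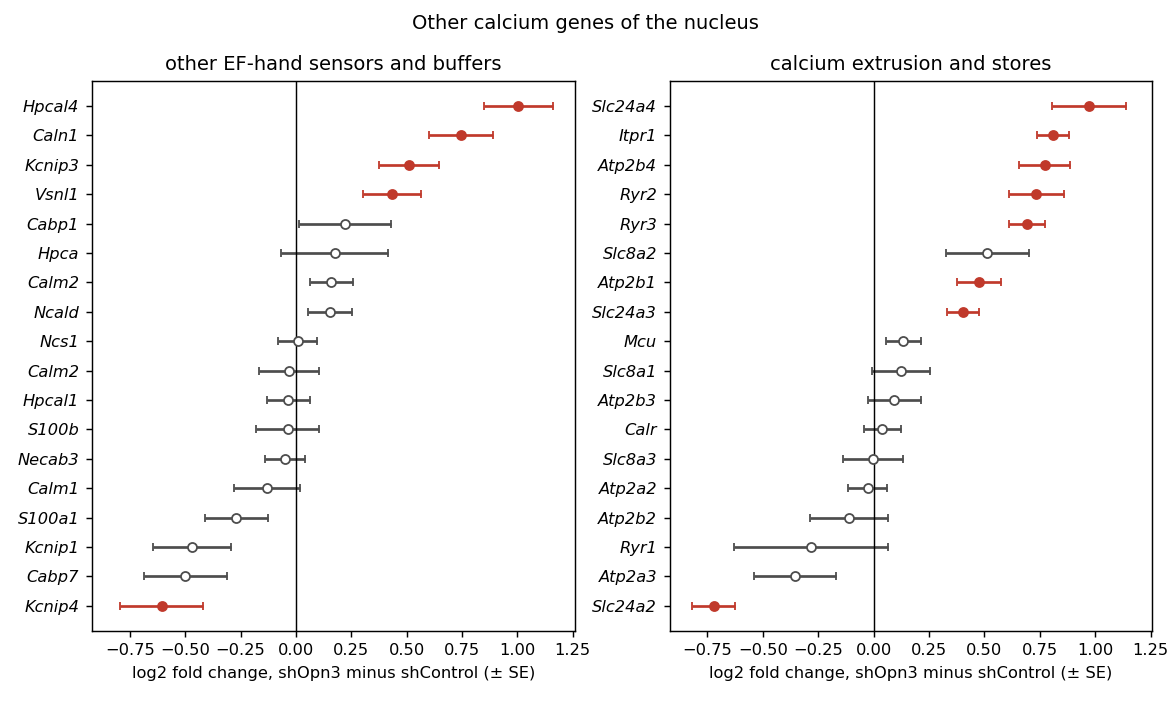
Log2 fold change, shOpn3 minus shControl, ± SE (horizontal axes) for the tested entries of the list of other EF-hand proteins (left) and of the list of calcium pumps, exchangers and store channels (right). Filled red points have a limma adjusted p under 0.05; 4 higher and 1 lower are seen on the left, 7 higher and 1 lower on the right.

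Genes that move calcium out of the cytosol or release it from stores were taken as the other arm of calcium handling. Of 18 such genes 7 were higher and 1 was lower (44.4% called, against 18.8% of all genes), with a median log2 fold change of 0.13. This list too was chosen with earlier results of these data known, so its share is a description. The replicate block called 8 higher and 1 lower; the added gene was the sodium-calcium exchanger Slc8a2 (0.51, higher in 5 of 5 pairs; limma adjusted p = 0.0787, and 0.00216 with the block). Itpr1, the inositol trisphosphate receptor, had 6491, 5301, 5365, 5504 and 6015 normalized counts in shControl and 9891, 10579, 10177, 9638 and 9806 in shOpn3 (a log2 difference of 0.81 ± 0.072, SE, with an adjusted p of 0.000113 in limma). The gap between the groups was wide compared with the spread inside either. The ryanodine receptors Ryr2 and Ryr3 rose by 0.73 and 0.69 (SE 0.13 and 0.081), the plasma membrane pumps Atp2b4 and Atp2b1 by 0.77 and 0.48 (SE 0.11 and 0.10), and the potassium-dependent exchangers Slc24a4 and Slc24a3 by 0.97 and 0.40 (SE 0.17 and 0.074), with limma adjusted p from 0.000321 to 0.00595. Their relative Slc24a2 fell by 0.72 (SE 0.099; limma adjusted p = 0.000613). Not all members of these families were called: Ryr1 was at -0.28, Atp2b2 at -0.11 and Atp2b3 at 0.09 (limma adjusted p = 0.622, 0.709 and 0.637). In each of the 8 called genes the groups did not overlap, which held for 15.3% of all genes. The 8 were picked by their calls on the same values, so this is no separate support. Atp2b1 alone lost its call in an alternative, without both samples of numbers 1 and 5 (0.38, limma adjusted p = 0.0651).

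The 3 binding partners of the NECAB proteins closed the comparison. Grm5, which encodes the Necab2 partner mGluR5, stood at 1248 ± 209 in the controls and at 2218 ± 247 after the knock-down (normalized counts, SD, n = 5 each), with no overlap. It rose by 0.84 in log2 (SE 0.12; limma adjusted p = 0.000845) and was higher in 5 of 5 pairs. Adora2a, the gene of the other receptor, had 110 ± 13.6 and 72.0 ± 13.4 (SD, n = 5 each), a log2 difference of -0.61 ± 0.16 (SE) with an adjusted p of 0.0183 in limma. It was not called without shControl replicate 2 (-0.57, limma adjusted p = 0.0502) or without both samples of numbers 1 and 5 (-0.40, 0.150). For Syt1, the synaptotagmin bound by Necab1, the log2 fold change of 0.37 was not called (limma adjusted p = 0.170).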

How the data were processed

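Per the submitters' processing notes, the authors used FastQC, STAR, featureCounts and DESeq2; versions, genome build and strand setting are not given in the sources used here. The authors deposited a signal per gene and sample, namely read counts divided by 1 size factor per sample (0.942 to 1.07), and whole reads were recovered for 100% of values (tolerance 0.001). The deposited table also holds the authors' log2 fold change with its standard error, a Wald score, and a p-value with its adjusted p-value.

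From these values, log2(normalized count + 1) was fitted with limma 3.58.1 (R 4.3.3; group alone, trended variance, two-sided, Benjamini-Hochberg over 15597 genes with a mean of at least 10). edgeR 4.0.16, DESeq2 1.42.0 and limma-voom on recovered reads were alternatives, as were pseudocounts of 0.5 and 5, other filters and scalings, the replicate block and each sample left out. The fit was tested on simulated data with known changes. Single values were compared over the 252 splits of 5 against 5.

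Always named were the members, Opn3, Avp and Oxt. To these the rule added up to 6 called genes per list and direction, the 3 NECAB partners, and the 3 genes nearest to each member in centred log2 profile. Slc24a3, Slc8a2, Kcnip1, Ryr1, Atp2b2 and Atp2b3 fall outside this rule and were named after their values had been seen. Members and lists were chosen with earlier results of these data known. Same-numbered samples deviated together across genes (r from 0.12 to 0.44, over 0.1 in all 5 pairs; different numbers: median -0.21, highest 0.36). The labels say that each rat gave a nucleus to both groups but not that numbers mark rats, so the numbers were taken as pairs from this check. Nothing says that the 5 samples of a group came from 5 separate rats, and p-values measure the spread between these samples.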

Additional observations from a re-analysis of the deposited data

Results flagged for a closer look

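Sample values of 24 of the named genes were examined in each group, 48 sets of 5 in all. These were the 6 members, Opn3, Avp, Oxt and the genes that the naming rule took from the lists. Genes nearest in profile and those named outside the rule were not examined. In 1 of them a single value lay unusually far from its neighbour for the range of the group, while chance gives about 2.4 at 1 in 20. This was Oxt in shControl replicate 1, at 56716 normalized counts, where the nearest sample had 21354. None of the 6 calcium-binding genes had such a sample in either group.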

How the results depend on the processing

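In 21 alternative fits Scgn was lower and called each time. Calb1 kept its direction in all 21 and its call in 15, and left-out samples moved its log2 fold change between -0.83 and -0.59. Necab2 kept its direction in all 21 and its call in 13; it was 0.69 under edgeR and between 0.64 and 0.95 with samples left out. Calb2 stayed positive and uncalled throughout (0.11 to 0.29). The sign was not stable for the other 2. Necab1 lay between -0.19 and 0.06 with samples left out, turning positive at 0.059 without shControl replicate 3 and 0.04 without shOpn3 replicate 4. Pvalb lay between -0.38 and 0.0043, turning positive at 0.0043 without shOpn3 replicate 1 and at 0.023 without both samples of numbers 1 and 5, an alternative chosen after seeing the data.

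The number of genes called was 2940, between 1987 (without shOpn3 replicate 3) and 3056 with samples left out and 5085 with limma-voom and sample quality weights. A replicate block gave 4726 genes. The block changed no call among the 6 members. Relative to Avp and Oxt, exact sign flips over the 5 pairs, the form of the replicate block for these values, gave an adjusted p of 0.0625, the smallest they can give, at unchanged differences of 1.58, 2.46, 2.09, 1.36, 2.23 and 3.05 for Calb1, Calb2, Pvalb, Scgn, Necab1 and Necab2. With samples left out these differences lay in 1.21 to 1.81, 2.23 to 2.64, 1.78 to 2.53, 0.98 to 1.56, 1.91 to 2.45 and 2.84 to 3.35, all still called. Relative to neuronal markers, the same pairing left -0.70 for Calb1 and -0.92 for Scgn without a call (adjusted p = 0.188 each, exact sign flips). Both were at the smallest unadjusted value, 0.0625, so this test could not have called them. With samples left out the ranges were -0.83 to -0.61 for Calb1, 0.13 to 0.23 for Calb2, -0.33 to 0.06 for Pvalb, -1.07 to -0.85 for Scgn, -0.13 to 0.03 for Necab1 and 0.62 to 1.02 for Necab2. The sign turned for Necab1 at 0.034 without shControl replicate 3 and for Pvalb at 0.059 without shOpn3 replicate 1. With 5 samples a group and Pvalb at 147 to 423 normalized counts, small changes of that gene were not detectable.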

Other observations

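Among the 15 called genes of the lists of other EF-hand proteins, calcium extrusion and stores, and NECAB partners, both shControl replicates 1 and 5 lay beyond the other 3 controls in the direction of the shOpn3 difference in 7, as they did for Calb1, Scgn and Necab2. They lay beyond them in the opposite direction in 1, Atp2b1, and had no such common place in the other 7, among them Grm5, Caln1 and Ryr2. This order was looked for after the values had been seen. Its share over all called genes was not counted, so it cannot be read as particular to these lists. Hpcal4 had 8344 and 10103 normalized counts in these 2 samples, 6235 to 6695 in the other controls and at least 11524 in shOpn3. Kcnip3 had 680.0 and 741 there, against 455 to 529 in the other controls. Slc24a4 had 206 and 230, against 132 to 160. Kcnip4, which was lower in shOpn3, had 3600 and 2821 there, against 4491 to 5593. Atp2b1, which was higher in shOpn3, had 6602 and 6136 there, against 7041 to 7600 in the other controls. Caln1 had 346 and 280 there, against 246 to 329.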
